A study of Mus musculus with 48 samples.

Results

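Endothelial cells were followed through 10 marker genes, Cldn5, Flt1, Pecam1, Ly6c1, Slco1a4, Itm2a, Tek, Kdr, Cdh5 and Esam, in RNA from mouse cortex and from synaptosomes prepared from it. The genes were chosen by name, and each symbol was matched through GENCODE to 1 Ensembl identifier of the count table, so that they make up 10 of its 48526 genes. All 10 had reads. The rule uses no measured value, but the members were chosen with earlier results of these data known.

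Endothelial cells line the blood vessels of the cortex and form the blood-brain barrier. Tight and adherens junctions seal their contacts, transporters in their membrane select what crosses, and receptors for vascular endothelial growth factor and angiopoietins tie their growth and rest to signals from neurons, astrocytes and the pericytes around them. They form no synapses, so their transcripts were used to follow what a synaptosome preparation retains of this cell type. The genes gave no common value for it. At 5 months, ribosome-associated RNA of synaptosomes held 4.83% of the homogenate level of Ly6c1 and 102% of that of Itm2a (means over mice). What other cells add to the reads of each gene was not tested. These transcripts do not stand for glia, whose markers went the other way and are described further below.

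The cortices came from 12 male wild-type mice of the strain C57BL/6JRj, 4 at 3 weeks (3w), 4 at 5 months (5m) and 4 at 18 months (18m). For the middle group the labels read 6 months and the treatment protocol 5 months, and the name 5m is used here. For the oldest, the protocol reads 18/19 months. From each mouse, RNA was sequenced from total homogenate (TH) and from synaptosomes (SYN), collected from a sucrose gradient. Synaptosomes hold nerve terminals with postsynaptic parts, and markers of glia were present in SYN as well. Both TH and SYN were sequenced before (input) and after sedimentation through a sucrose cushion (SC), which collects RNA associated with ribosomes. Per the protocol, only TH was homogenized again and cleared by a spin before the cushion, and in SC these steps cannot be told apart from the cushion or from the difference of TH and SYN. This gives 48 libraries in 12 groups of 4 mice, and the 4 libraries of a mouse come from the same animal. All values are from bulk RNA, in which fewer endothelial cells and less RNA per cell cannot be told apart.

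Total counts ranged from 9699909 to 13225435 in input TH, from 3058278 to 15423546 in SC TH, from 1780267 to 7879536 in input SYN and from 5341263 to 18590040 in SC SYN. Levels are given as CPM, counts scaled to equal library totals, after TMM scaling of the 48 libraries, as mean ± SD over the 4 mice of a group. Fold changes are log2 values of edgeR's quasi-likelihood test with their SE and Benjamini-Hochberg adjusted p, and a gene is called changed at an adjusted p under 0.05. Library size in place of TMM moved the median of all genes between SYN and TH by -0.53 to -0.65, so that all differences between SYN and TH are relative to the other genes. One mouse stood apart: in the input TH library of mouse 191 (5m) the 10 genes summed to 333 CPM, against 231 to 237 CPM in the other 3 mice of 5m. Its markers of mural cells (pericytes and smooth muscle) summed to 536 CPM against 224 to 255 CPM, and those of perivascular fibroblasts to 671 CPM against 112 to 137 CPM.

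The genes fall into 3 roles. Cldn5 (chr16:18776847-18778262, GRCm38, plus strand, 1 exon) codes for the claudin of the barrier's tight junctions, Cdh5 (chr8:104101625-104144511, plus) for vascular endothelial cadherin of the adherens junctions, Esam (chr9:37528078-37538319, plus) for a junctional adhesion molecule and Pecam1 (chr11:106654217-106750628, minus) for an adhesion molecule at endothelial contacts. Flt1 (chr5:147561604-147726011, minus) and Kdr (chr5:75932827-75978458, minus) code for receptors of vascular endothelial growth factors, and Tek (chr4:94739289-94874976, plus) for the receptor of angiopoietins. Slco1a4 (chr6:141805440-141856199, minus) codes for an organic anion transporter of the barrier, Ly6c1 (chr15:75044018-75048830, minus) for a lipid-anchored surface protein and Itm2a (chrX:107397099-107403376, minus) for a membrane protein. The exons of none of the 10 overlap those of another annotated gene. Ly6c1 and Slco1a4 have close relatives whose reads may not be separable from theirs: over the 48 libraries Ly6c2 had 588 counts beside 3437 of Ly6c1, and Slco1a6 had 763 and Slco1a5 97 beside 5368 of Slco1a4.

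Upstream sequences are shown for Kdr, Slco1a4, Tek and Cldn5. These are the members whose ribosome-associated RNA fell in TH between 3w and 5m with all mice included (described with the ages). The sequences hold up to 250 bases before the start of the gene, from RefSeq on GRCm38.p6, and 7 of the 10 members had an entry. Capitals mark GGAA or, on the other strand, TTCC, the core letters bound by ETS factors, a family with known roles in endothelial genes.
Kdr (chr5:75978459-75978705, minus strand): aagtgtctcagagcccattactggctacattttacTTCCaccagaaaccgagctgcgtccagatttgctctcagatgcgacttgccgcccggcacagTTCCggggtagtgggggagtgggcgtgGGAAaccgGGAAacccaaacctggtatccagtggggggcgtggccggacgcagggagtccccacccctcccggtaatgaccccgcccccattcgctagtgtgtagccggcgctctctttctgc
Slco1a4 (chr6:141856221-141856470, minus strand): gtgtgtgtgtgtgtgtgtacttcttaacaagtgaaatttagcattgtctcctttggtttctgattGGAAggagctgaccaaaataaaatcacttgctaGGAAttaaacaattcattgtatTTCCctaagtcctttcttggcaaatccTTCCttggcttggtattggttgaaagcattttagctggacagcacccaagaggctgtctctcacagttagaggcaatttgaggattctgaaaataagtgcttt
Tek (chr4:94739039-94739288, plus strand): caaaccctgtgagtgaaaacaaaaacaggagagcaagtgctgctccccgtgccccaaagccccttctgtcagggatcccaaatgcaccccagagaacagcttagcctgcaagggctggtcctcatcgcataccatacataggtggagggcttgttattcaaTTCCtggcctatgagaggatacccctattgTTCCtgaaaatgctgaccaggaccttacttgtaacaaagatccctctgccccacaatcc
Cldn5 (chr16:18776597-18776846, plus strand): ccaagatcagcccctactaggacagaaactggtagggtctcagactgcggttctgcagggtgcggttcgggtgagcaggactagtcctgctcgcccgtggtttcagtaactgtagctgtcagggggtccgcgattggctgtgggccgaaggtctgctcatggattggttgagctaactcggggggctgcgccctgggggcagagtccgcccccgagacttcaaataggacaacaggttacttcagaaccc
The core letters occurred 4 times upstream of Kdr, 4 times upstream of Slco1a4, 2 times upstream of Tek and 0 times upstream of Cldn5, counting both strands. Among 32851 upstream sequences of the same design, 93.45% held them at least once, with a median of 3. The longer form CCGGAA was present once, upstream of Kdr, where it includes 1 of the 4 cores, and 12.03% of all upstream sequences held it. GC content was 61.5% for Kdr, 39.2% for Slco1a4, 51.2% for Tek and 59.6% for Cldn5.

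Per length, Cldn5 was the most abundant of the 10 transcripts in input TH and Kdr, Tek and Pecam1 were the least. In input TH at 5m the order in RPKM (TMM-scaled CPM per kilobase of exon) was Cldn5 at 18.3 ± 5.71, Ly6c1 at 9.96 ± 2.34, Itm2a at 9.65 ± 3.34, Flt1 at 6.58 ± 0.748, Esam at 6.14 ± 0.844, Slco1a4 at 4.33 ± 0.789, Cdh5 at 3.89 ± 1.71, Pecam1 at 2.98 ± 0.915, Tek at 2.36 ± 0.592 and Kdr at 2.1 ± 0.471 (SD, n = 4). Neighbours from Ly6c1 down lie within 1 SD of each other, other than Esam and Slco1a4, and Cldn5 stands above the next gene by more than its SD. In SC SYN at 5m the order was another one. Itm2a led with 5.81 ± 1.22 RPKM, ahead of Esam at 1.32 ± 0.233, Cdh5 at 1.03 ± 0.0522 and Cldn5 at 0.866 ± 0.702, and Tek was last with 0.0958 ± 0.0324.

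**Figure D1:**
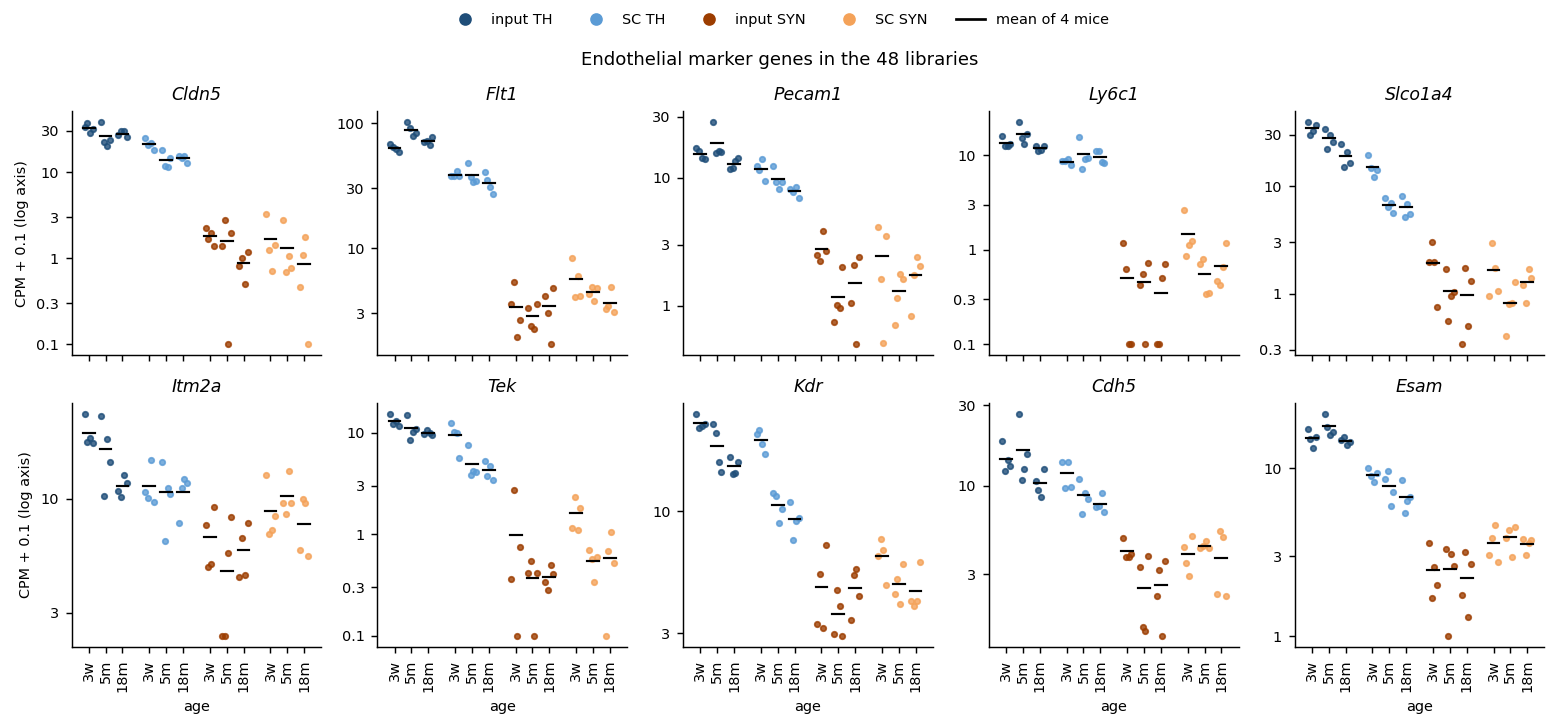
Levels of the 10 endothelial genes in the 48 libraries, as TMM-scaled CPM plus 0.1 on a log axis, by fraction (colour) and age, with 1 point per mouse and a black line at the mean of the 4 mice. For every gene other than Itm2a the TH points (blue) lie above the SYN points (brown and orange) of the same age.

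Endothelial transcripts were scarce among the ribosome-associated RNA of synaptosomes. In SC, 9 of the 10 genes were called lower in SYN than in TH at each of the 3 ages. Of the 16630 genes tested, 32.4% were called lower at 3w, 35.8% at 5m and 32.2% at 18m. The SYN and TH libraries of these 9 genes did not overlap, which was not counted over all genes. The median log2 fold change of the 10 was -2.45 at 3w, -2.96 at 5m and -2.25 at 18m, against -0.04, -0.09 and -0.07 over all genes. Library size in place of TMM called all 10 lower at each age and left 9050 of 16630 genes lower and 3082 higher at 3w, instead of 5385 and 5173. Beside them, 5 of 5 red blood cell genes were lower in SYN at each age, as were 7, 7 and 6 of 7 nuclear RNAs.

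Cldn5 lost most among the junction genes. Its SC TH libraries were at 24.4, 20.5, 21.4 and 17.8 CPM in the mice of 3w, and its SC SYN libraries at 3.17, 1.13, 0.61 and 1.33 CPM. At 18m the SC TH libraries were at 15.0, 14.4, 15.3 and 12.7 CPM and the SC SYN libraries at 0.368, 0.975, 1.66 and 0.0 CPM. Every TH library thus lay several times above every SYN library, and 1 SYN library had no Cldn5 read. The log2 fold change was -3.72 ± 0.37 at 3w (SE, adjusted p = 3.69e-09), -3.56 ± 0.35 at 5m (3.39e-09) and -3.83 ± 0.36 at 18m (2.02e-09). In other terms, SYN held 7.20% ± 4.29, 8.24% ± 4.75 and 5.01% ± 4.79 (SD, n = 4 mice) of the TH level of the same mouse.

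Cdh5 and Esam, also of the junctions, retained far more. At 5m, Esam was at 8.52, 9.48, 5.82 and 7.08 CPM in SC TH and at 3.75, 4.21, 2.86 and 4.34 CPM in SC SYN. The groups did not overlap, but the highest SYN library was close to the lowest TH library. Esam differed by -1.33 ± 0.21, -0.95 ± 0.18 and -0.93 ± 0.19 (log2, SE) at 3w, 5m and 18m, and Cdh5 by -1.58 ± 0.24, -0.96 ± 0.21 and -0.88 ± 0.21. SC SYN held 38.9% to 52.3% of the TH level of Esam and 34.2% to 51.3% of that of Cdh5, as means over the mice of an age. Pecam1 lay between these genes and Cldn5, with fold changes of -2.29 ± 0.32, -2.89 ± 0.31 and -2.10 ± 0.30.

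The growth factor receptors split in the same way. Flt1 was at 47.6, 37.0, 33.9 and 34.6 CPM in SC TH at 5m and at 4.20, 4.80, 3.69 and 4.67 CPM in SC SYN, a gap wider than the whole spread within either group. Its fold changes were -2.77 ± 0.19, -3.07 ± 0.18 and -3.13 ± 0.18 at 3w, 5m and 18m, with adjusted p of 4.13e-12, 3.42e-13 and 1.09e-12. Kdr, the other receptor of the same growth factors, was at 11.9, 11.6, 8.78 and 10.1 CPM in SC TH at 5m and at 4.35, 5.03, 3.93 and 5.84 CPM in SC SYN. Kdr was again lower in each SYN library than in any TH library, but by less: -1.62 ± 0.18, -1.07 ± 0.17 and -1.03 ± 0.17. SC SYN thus held 31.3% to 49.4% of the TH level of Kdr and 10.9% to 14.3% of that of Flt1. The difference between the 2 receptors was not tested. Tek differed by -2.61 ± 0.34, -3.37 ± 0.39 and -2.76 ± 0.37.

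Ly6c1 was the lower of the surface genes at 5m and 18m. In SC SYN at 5m it had 15 counts over the 4 libraries, against 474 in SC TH, a ratio of TH to SYN of 26.1 (95% exact binomial interval 15.6 to 46.9). Such intervals cover counting error only. Fold changes of Ly6c1 were -2.60 ± 0.33 at 3w, -4.50 ± 0.34 at 5m and -4.14 ± 0.33 at 18m, and those of Slco1a4 -3.19 ± 0.30, -3.02 ± 0.31 and -2.41 ± 0.29.

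Itm2a was the exception. Its SC TH libraries were at 14.7, 6.32, 11.1 and 10.4 CPM at 5m, and its SC SYN libraries at 9.44, 8.42, 13.2 and 9.43 CPM, so that both groups covered the same range. The log2 fold change was -0.36 ± 0.26 at 3w (adjusted p = 0.222), -0.03 ± 0.23 at 5m (0.906) and -0.37 ± 0.23 at 18m (0.167). With library size in place of TMM it was -0.90, -0.62 and -0.90 and was called at each age. The sign at 5m turned to 0.01 with the mouse as a block and to 0.19 without mouse 191, neither called. SC SYN held 80.1% ± 30.6, 102% ± 30.8 and 71.7% ± 18.4 (SD, n = 4 mice) of its TH level.

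Before the cushion the depletion covered all 10 genes. In input, each was called lower in SYN than in TH at every age. Of 17860 genes, 39.3% were called lower at 3w, 40.1% at 5m and 39.4% at 18m. The SYN and TH libraries of each of the 10 did not overlap, which was not counted over all genes. The median of the 10 was -2.95, -3.94 and -3.49, against -0.18, -0.18 and -0.12 over all genes. Itm2a was at 23.8, 10.2, 18.7 and 14.6 CPM in input TH at 5m and at 2.25, 2.26, 5.55 and 8.17 CPM in input SYN. The highest SYN library of Itm2a lay just below its lowest TH library, and the fold changes of -1.50 ± 0.30, -1.70 ± 0.32 and -0.81 ± 0.27 were the smallest of the 10 at each age. With trends on GC content and length removed, the call at 18m was lost (adjusted p = 0.101).

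Flt1 had the highest CPM of the 10 in input TH, and at 5m its libraries stood at 102, 91.1, 79.0 and 83.5 CPM, against 3.21, 2.26, 2.13 and 3.46 CPM in input SYN. No mouse of 5m kept more than 4.14% of its TH level. The fold changes of Flt1 were -3.96 ± 0.19, -4.80 ± 0.19 and -4.22 ± 0.17. For Tek and Ly6c1, input SYN held too few reads for a close value: at 5m Tek had 3 counts over 4 libraries against 574 in TH, a ratio of 40.4 (95% exact binomial interval 13.7 to 196), and Ly6c1 had 4 counts against 857, a ratio of 45.2 (17.6 to 166). Slco1a4 differed by -3.94 ± 0.29, -4.61 ± 0.34 and -4.13 ± 0.30, Cldn5 by -4.05 ± 0.31, -3.97 ± 0.33 and -4.91 ± 0.31, and Pecam1 by -2.46 ± 0.30, -3.90 ± 0.35 and -2.86 ± 0.28. Kdr, Cdh5 and Esam lay between -1.67 and -2.66.

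**Figure D2:**
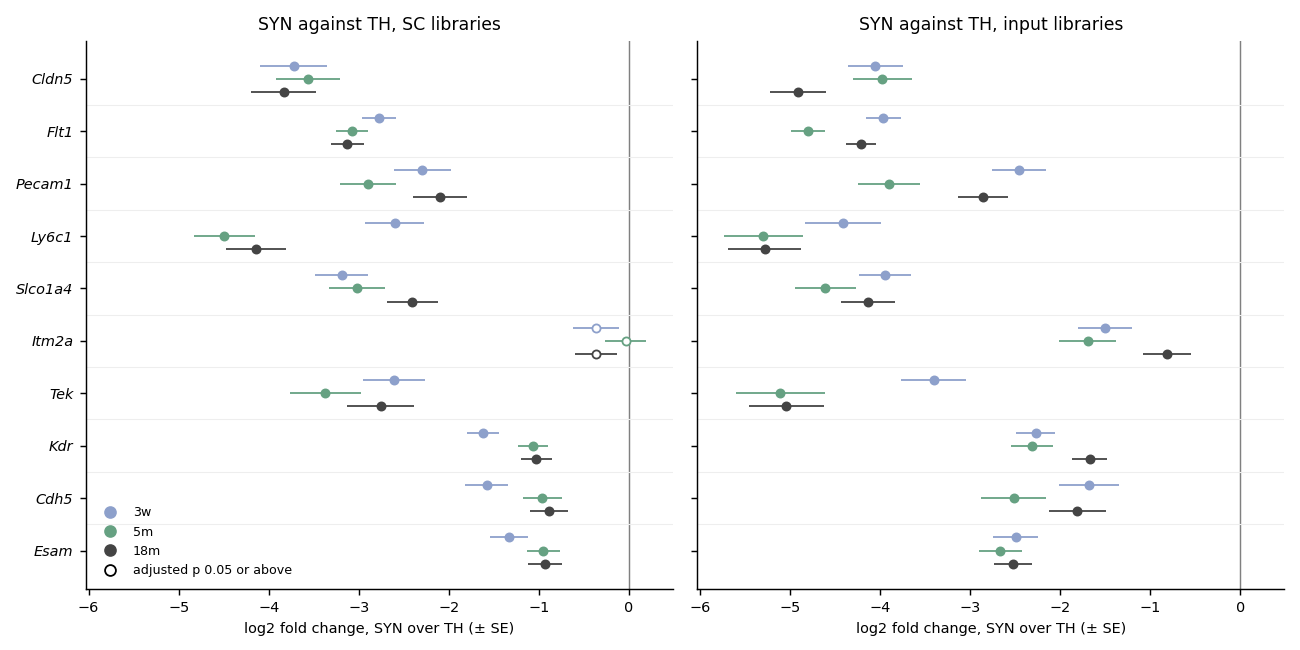
Log2 fold change of SYN over TH (± SE) for each endothelial gene in SC and in input, by age. Filled points have an adjusted p under 0.05. All points lie left of 0, and the only open ones are the 3 of Itm2a in SC.

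Whether the depletion was smaller in SC than in input was tested as a difference of the 2 contrasts in 1 fit over the 48 libraries, a comparison added after seeing the data. All 10 differences were above 0 at each age, and 2 were called at 3w, 5 at 5m and 4 at 18m, where 5.76%, 8.57% and 10.1% of 18112 genes were called in that direction. The median difference of the 10 was 0.74, 1.57 and 1.08 (log2), against -0.03, -0.0001 and -0.01 over all genes. Flt1 and Esam were called at each age, Flt1 with 1.15 ± 0.31, 1.72 ± 0.31 and 1.08 ± 0.28 and Esam with 1.12 ± 0.35, 1.70 ± 0.32 and 1.58 ± 0.30. Itm2a (1.65 ± 0.41), Cdh5 (1.55 ± 0.43) and Kdr (1.23 ± 0.30) were called at 5m. Tek (2.28 ± 0.76) and Slco1a4 (1.71 ± 0.50) were called at 18m, where Tek rests on 5 counts in input SYN. Other lists moved as well: mural genes had medians of 0.87, 1.41 and 0.60, with 1, 6 and 3 of 14 called higher, the 50 other endothelial genes medians of 0.41, 0.85 and 0.53, and nuclear RNAs at 18m a median of 1.25, with 7 of 7 called higher. Neuronal genes went the other way, with medians of -0.53, -0.55 and -0.64 and 7, 7 and 8 of 10 called lower. Of all 18112 genes, 2164, 2613 and 2642 were called lower. The part of these lists in the endothelial values was not tested.

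These calls rested on few mice at 3w and 18m. With the mouse as a block, Itm2a and Ly6c1 were added at 3w, which gives 4 calls. None was left at 3w without mouse 189, 1 without mouse 187 or 188, and 4 without mouse 191. At 18m, Esam alone was called without mouse 197. The shares over all genes in these settings are not given here.

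The gap between SYN and TH was not shown to change with age. In SC, 0 of the 10 genes were called between 3w and 5m or between 5m and 18m (2 and 0 at an unadjusted p under 0.05), and 0.0301% and 0.0% of all genes were. In input, 0 were called at either step (2 and 0 unadjusted), where 0.0224% and 2.42% of all genes were. DESeq2 also called 0 at each step. Ly6c1 in SC had the largest difference, -1.89 ± 0.55 from 3w to 5m (adjusted p = 0.299).

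Within TH, endothelial transcripts were lower in SC than in input, that is, their share of the RNA under the cushion was smaller than their share of all RNA. Of the 10 genes, 6 were lower at 3w, 10 at 5m and 7 at 18m, where 26.6%, 32.2% and 32.7% of 18416 genes were lower. The median was -0.51, -0.82 and -0.81, against -0.05, -0.05 and -0.01 over all genes. Slco1a4 differed most at each age. Its input TH libraries were at 33.7, 22.1, 29.9 and 25.4 CPM at 5m and its SC TH libraries at 7.69, 6.32, 6.90 and 5.50 CPM, with a wide gap between them. The fold changes of Slco1a4 were -1.10 ± 0.17, -1.98 ± 0.17 and -1.55 ± 0.17, with adjusted p of 3.26e-06, 1.77e-10 and 8.49e-09.

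Cldn5, Flt1, Esam and Slco1a4 were called at all 3 ages. Flt1 differed by -0.59 ± 0.11, -1.13 ± 0.11 and -1.06 ± 0.11, Esam by -0.62 ± 0.15, -1.11 ± 0.14 and -1.06 ± 0.13, and Cldn5 by -0.49 ± 0.16, -0.80 ± 0.16 and -0.91 ± 0.15. Tek, Kdr and Pecam1 passed at 5m and 18m but not at 3w, with -0.30 ± 0.20, -0.12 ± 0.13 and -0.24 ± 0.17 at 3w. Ly6c1 and Itm2a passed at 3w and 5m, and Cdh5 at 5m. Other lists moved beside them: in SC 5, 10 and 8 of 14 mural genes were lower than in input, as were 6, 7 and 7 of 7 nuclear RNAs. Neuronal genes were higher in 9, 10 and 10 of 10 cases, where 4812, 5507 and 5761 of 18416 genes were higher. The part of these lists in the endothelial values was not tested.

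The change of this difference with age, also a comparison added after seeing the data, was called for Slco1a4 between 3w and 5m (-0.88 ± 0.24, adjusted p = 0.0486), 1 of the 10 where 1.32% of genes were called lower. Kdr (-0.63 ± 0.19, 0.061) and Flt1 (-0.54 ± 0.16, 0.0562) missed the threshold. With the mouse as a block, Slco1a4, Tek, Kdr and Flt1 were called, 4 in all. The shares over all genes with the block and in the other settings that follow are not given here. No gene was called without mouse 187, 188, 190, 191, 193, 194 or 197, with all 48 libraries in 1 fit or with GC content and length offsets, and without mouse 195 there were 2. Between 5m and 18m 0 were called (0 unadjusted, and 1.78% of all genes in either direction), and 0 by DESeq2.

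Within SYN, 7 of the 10 genes had enough reads to compare SC with input, which excludes Ly6c1, Slco1a4 and Tek. None was called at 3w or at 18m by edgeR (0 at an unadjusted p under 0.05 and 0 by DESeq2 at both ages), where 18.5% and 12.6% of 14301 genes were called. At 5m Itm2a was higher in SC, at 10.1 ± 2.12 CPM against 4.56 ± 2.87 CPM (log2 fold change 1.06 ± 0.33, adjusted p = 0.0242), where 9.66% of genes were higher. Its 4 SC SYN libraries all lay above the 4 input SYN libraries. The call was lost without mouse 191, 192 or 193.

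With age, 4 endothelial transcripts fell in SC TH between 3w and 5m, where 8.46% of 16427 genes were lower. They were Kdr, Slco1a4, Tek and Cldn5, the genes whose upstream sequences are given above. Kdr was at 21.4, 22.2, 19.3 and 17.5 CPM in SC TH at 3w and at 11.9, 11.6, 8.78 and 10.1 CPM at 5m, so that the groups were well apart (-0.95 ± 0.14, adjusted p = 0.000283). Slco1a4 was at 19.4, 14.5, 12.2 and 14.1 CPM at 3w and at 7.69, 6.32, 6.90 and 5.50 CPM at 5m, again without overlap (-1.19 ± 0.18, 0.000376).

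Tek was at 12.4, 10.2, 9.95 and 5.57 CPM at 3w and at 7.50, 3.71, 4.14 and 4.03 CPM at 5m, and the lowest young library lay below the highest adult one, that of mouse 191 (-0.98 ± 0.24, adjusted p = 0.0108). Cldn5 also overlapped, at 24.4, 20.5, 21.4 and 17.8 CPM against 18.1, 11.6, 11.4 and 14.4 CPM (-0.62 ± 0.14, 0.00711). Flt1 (-0.03 ± 0.13), Itm2a (-0.11 ± 0.21), Esam (-0.25 ± 0.18), Pecam1 (-0.30 ± 0.15), Cdh5 (-0.46 ± 0.16) and Ly6c1 (0.27 ± 0.20) did not pass. Without mouse 191, Cdh5 was called too (-0.58, adjusted p = 0.0341 by edgeR). Kdr, Slco1a4, Tek and Cldn5 stayed called there, with -1.01, -1.27, -1.30 and -0.77. Beside these genes, in SC TH from 3w to 5m, the sum over 8 nuclear RNAs went from a range of 10710 to 13940 CPM to one of 7740 to 10960 CPM, and that over 8 perivascular fibroblast genes from 235 to 286 CPM to 125 to 171 CPM. Oligodendrocyte genes were lower in 9 of 10 cases (median -1.0), and their sum went from 4039 to 5021 CPM to 2095 to 2260 CPM. Red blood cell genes were lower in 4 of 5 cases (median -0.69), and their sum went from 401 to 606 CPM to 246 to 381 CPM. The median of the 10 endothelial genes was -0.38. Whether these lists bear on the endothelial values was not tested. Between 5m and 18m 0 of the 10 were called in SC TH (1 at an unadjusted p under 0.05, Pecam1, and 0 by DESeq2), where 2.17% of genes were called.

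With all mice included, input TH gave another picture. From 3w to 5m only Flt1 was called among the 10, and it rose, from 68.7, 65.0, 61.7 and 58.7 CPM to 102, 91.1, 79.0 and 83.5 CPM (0.48 ± 0.08, adjusted p = 0.000904), where 4.76% of 18078 genes rose. All libraries of 5m lay above those of 3w. Without mouse 191, whose vascular transcripts were high, 6 of the 10 were called, and the share over all genes in that setting is not given here. Flt1 was higher by 0.39, and Itm2a, Tek, Kdr, Slco1a4 and Cldn5 were lower, with -0.46, -0.43, -0.48, -0.44 and -0.58. Of these, Tek, Kdr, Slco1a4 and Cldn5 are the genes that fell in SC TH, so whether they were called in input TH depended on this mouse. Without it they fell in both fractions, with -1.30, -1.01, -1.27 and -0.77 in SC TH. The first 5m library in each list of values above is that of mouse 191.

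From 5m to 18m Flt1 (-0.28 ± 0.08), Ly6c1 (-0.49 ± 0.14), Pecam1 (-0.51 ± 0.16) and Slco1a4 (-0.51 ± 0.15) fell in input TH, with adjusted p from 0.0296 to 0.0436, 4 of 10 where 7.35% of genes fell. The 18m libraries of Flt1 were at 71.2, 71.3, 66.8 and 77.3 CPM, all below those of 5m. Slco1a4 was at 24.5, 15.1, 20.5 and 16.4 CPM against 33.7, 22.1, 29.9 and 25.4 CPM, with 1 aged library above the lowest adult one. This step depended on single mice. Without mouse 191, Slco1a4 fell and Cldn5 rose by 0.38, so that 2 were called, and without mouse 196, 197 or 198 there were 0, 1 and 1. One fit over all 48 libraries called 0. The shares over all genes in these settings are not given here.

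In SYN, levels were too low for most of the genes to be tested across ages. In SC SYN, 6 were tested and 0 were called from 3w to 5m or from 5m to 18m (0 at an unadjusted p under 0.05 and 0 by DESeq2), where 8.05% and 0.014% of 14240 genes were. In input SYN, Cdh5, Flt1, Itm2a and Kdr were tested and 0 were called at either step (0 unadjusted and 0 by DESeq2), where 3.22% and 0.139% of 12975 genes were. Without the filter on low counts, Tek was called in SC SYN from 3w to 5m, and Tek and Ly6c1 were in the fit of all 48 libraries, with Tek at 1.51 ± 0.592 CPM at 3w and 0.452 ± 0.153 CPM at 5m.

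**Figure D3:**
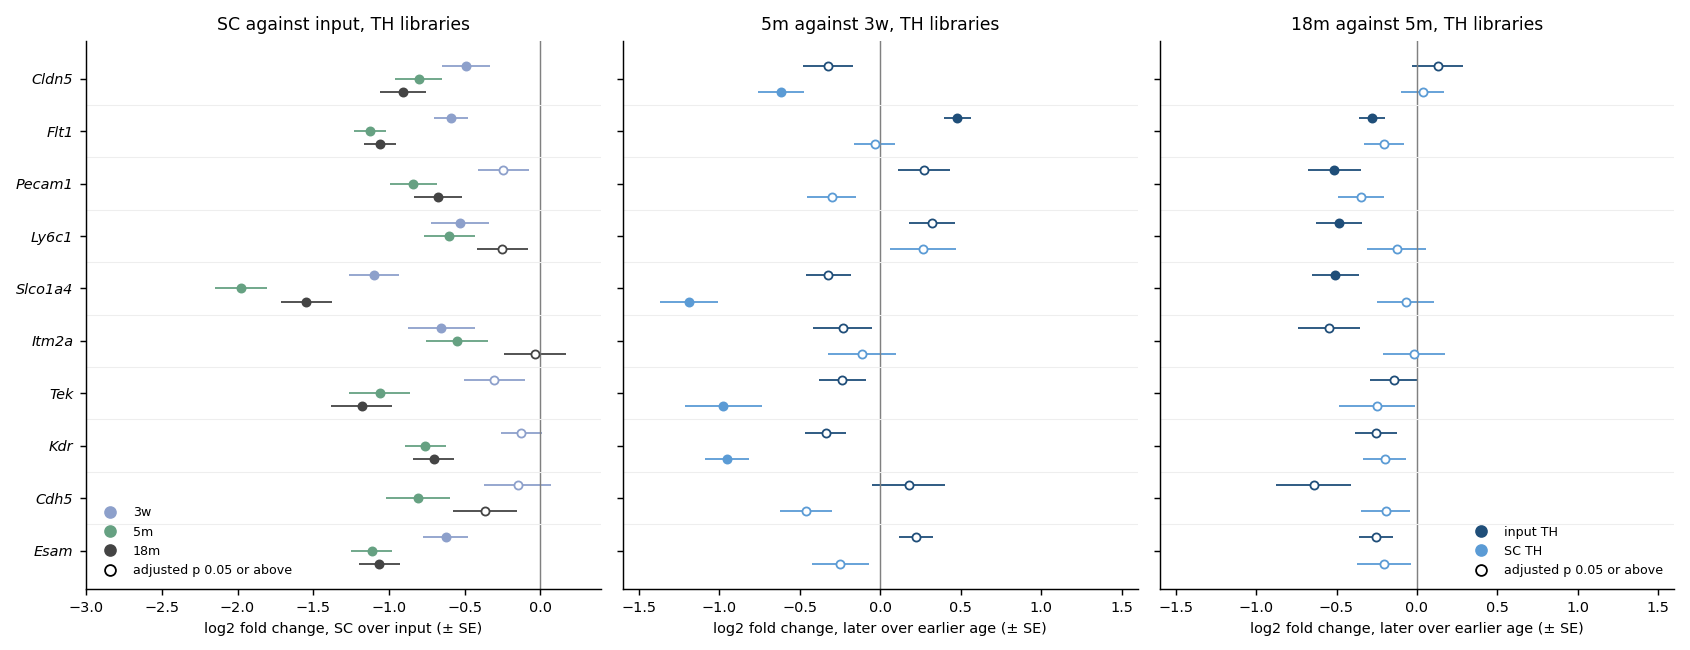
Log2 fold changes (± SE) of the endothelial genes in TH, for SC over input by age (left), for 5m over 3w (middle) and for 18m over 5m (right), the latter 2 in input TH (dark) and SC TH (light). Filled points have an adjusted p under 0.05. In the middle panel Kdr, Slco1a4, Tek and Cldn5 are filled left of 0 in SC TH, and Flt1 is filled right of 0 in input TH.

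A list of 50 other genes with known endothelial expression was more mixed than the 10 markers. The list was not limited to genes restricted to endothelial cells, and the part of other cells in its values was not tested. In SC, 27 of the 47 tested were lower in SYN and 14 higher at 3w, 25 and 15 at 5m, and 24 and 15 at 18m. Over all 16630 genes, 5385, 5948 and 5347 were lower and 5173, 5334 and 4974 higher. In input, 34, 34 and 32 of 50 were lower and 10, 9 and 9 higher. Over all 17860 genes, 7024, 7164 and 7031 were lower and 5655, 5826 and 5878 higher. Among genes that averaged 50 counts or more in the group where they were higher, the largest differences at 5m were those of Adgrl4 (-3.53), Ly6a (-3.46) and Ptprb (-3.43) in SC, and of Sox17 (0.0803 CPM in SYN and 7.74 CPM in TH), Adgrl4 (-5.43) and Ptprb (-5.16) in input. Ptprb, a phosphatase that acts on Tek, was at 73.4 ± 30.5 CPM in input TH and at 1.86 ± 0.687 CPM in input SYN. Among the genes that were higher in SYN, Spock2, which codes for a secreted proteoglycan, went from 865 CPM in input TH to 3681 CPM in input SYN at 5m, and Bsg, Ly6e and Tfrc were also higher. Slc2a1, the glucose transporter of the barrier, differed by 0.15 in SC and -0.07 in input and was not called.

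Ligands that act on vascular cells were mostly on the other side. In SC, 8, 12 and 7 of 12 were higher in SYN at 3w, 5m and 18m, and 0 were lower. Over all 16630 genes tested, 5173, 5334 and 4974 were higher. Apln, the ligand of the apelin receptor, was at 119 ± 26.6 CPM in SC SYN at 5m and at 39.8 ± 7.74 CPM in SC TH (1.65 ± 0.16). Tgfb1 (1.36) and Vegfb (1.33) followed, and in input Apln (2.00), Wnt7b (1.74) and Vegfb (1.65) led. The medians of the list stayed above 0 with library size in place of TMM, at 0.09 to 0.47.

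Of the mural genes, 7, 6 and 6 of 13 were lower in SYN in SC, and 2, 4 and 2 were higher. In input 11, 12 and 11 of 14 were lower and 1 was higher at each age. Over all genes, 5385, 5948 and 5347 of 16630 were lower in SC, and 7024, 7164 and 7031 of 17860 in input. Rgs5, a pericyte gene, was at 9.55 ± 2.31 CPM in SC SYN at 5m and at 32.3 ± 6.94 CPM in SC TH. The mural genes called higher in SYN there were Cspg4 (1.74), which oligodendrocyte precursors also express, Notch3 (0.77), Pdgfrb (0.70) and Anpep (0.58). In input at 5m, Acta2 was at 0 in all 4 SYN libraries and at 25.6 ± 34.2 CPM in TH, Myh11 at 0.0786 ± 0.157 and 28.2 ± 33.4 CPM, and Tagln at 0.936 ± 0.552 and 17.1 ± 22.4 CPM, with TH spreads wider than their means. Cnn1 and Higd1b were also at 0 there, and Icam2 of the endothelial list was. Of 8 perivascular fibroblast genes, 6, 6 and 3 were higher in SYN in SC and 0 were lower, but their median at 18m turned from 0.44 to -0.09 with library size. In input only 1 of the 8 was higher at each age and 0, 2 and 0 were lower, with medians of 0.52, -0.30 and 0.17. At 5m these genes summed to 671 CPM in the input TH library of mouse 191 and to 112 to 137 CPM in those of the other mice. Their sums in input SYN at 5m were 151 to 206 CPM. The calls of this list without mouse 191 are not given. Over all genes, 5173, 5334 and 4974 of 16630 were higher in SC, and 5655, 5826 and 5878 of 17860 in input.

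Markers of the brain's other cells differed between SYN and TH in other ways. All 10 astrocyte genes were higher in SYN than in TH at each age, in SC and in input, and 8 to 10 of 10 microglial genes were. Over all genes in SC, 5173, 5334 and 4974 of 16630 were higher and 5385, 5948 and 5347 lower. In input, 5655, 5826 and 5878 of 17860 were higher and 7024, 7164 and 7031 lower. Oligodendrocyte genes were higher in 9, 8 and 6 of 10 cases in SC, although the median at 18m changed sign with library size, and 4, 3 and 4 of 10 neuronal genes were higher there and 6 lower at each age. The neuronal medians in SC were -0.36, -0.50 and -0.50, and -0.90, -1.09 and -1.03 with library size. In input 5 neuronal genes were higher at each age and 3, 3 and 1 lower, and the medians of 0.20, 0.21 and 0.14 turned to -0.36, -0.45 and -0.43 with library size. The astrocyte medians were between 0.80 and 1.15 with library size.

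**Figure D4:**
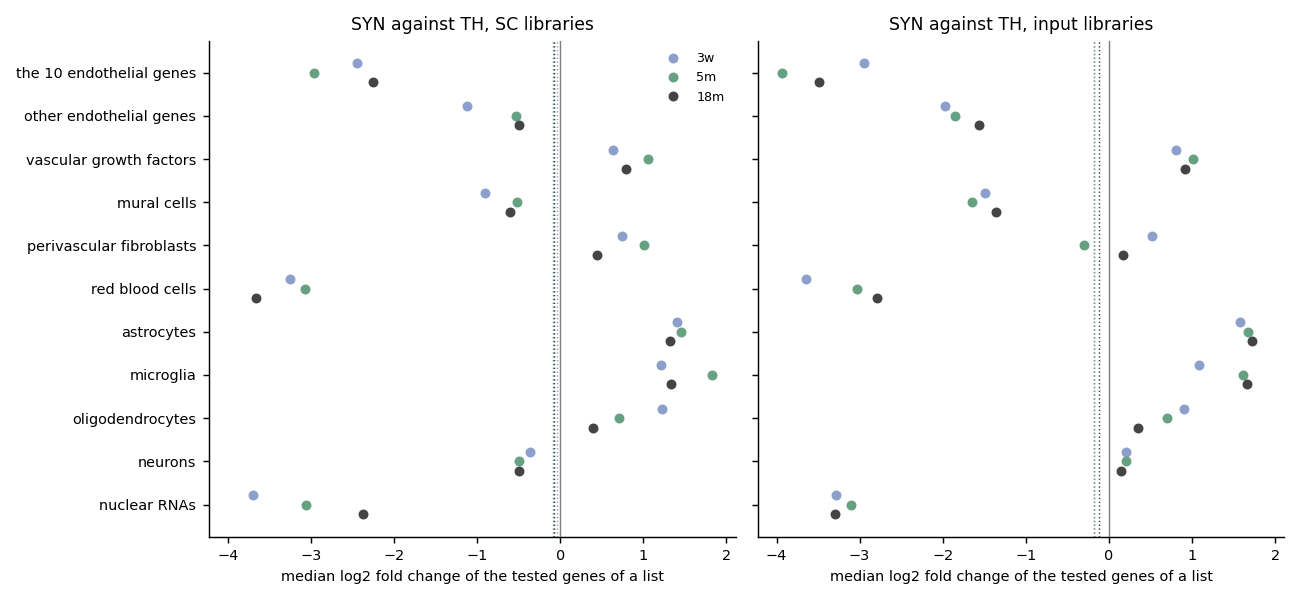
Median log2 fold change of SYN over TH for each gene list, in SC and in input, by age, with dotted lines at the median of all tested genes. The 10 endothelial genes, red blood cell genes and nuclear RNAs lie farthest left, and the astrocyte and microglial lists lie right of 0.

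With age, the other endothelial genes that changed in TH were mostly lower, least clearly in input TH from 3w to 5m. In SC TH from 3w to 5m, 15 of 47 were lower and 1 higher, where 1390 of 16427 genes were lower and 1558 higher. The largest called differences, by the same minimum of counts, were those of Cgnl1 (-1.19), Apcdd1 (-0.85) and Tfrc (-0.84), beside Rgs5 (-0.82) and Notch3 (-0.55) of the mural list. Among the ligands Vegfb (0.62), Wnt7b (0.60) and Vegfa (0.35) rose at the same step, Vegfa, which binds Kdr and Flt1, from 42.6 ± 1.03 to 55.1 ± 8.39 CPM. From 5m to 18m Vegfa fell by 0.45 on the log2 scale, and Apln (-0.52), Pdgfb (-0.51) and Slc2a1 (-0.45), the 1 of 47 endothelial genes called, fell too.

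In input TH from 3w to 5m, 3 of 50 endothelial genes rose and 5 fell, where 861 of 18078 genes rose and 1275 fell. Ly6a (0.92), Apcdd1 (-0.79) and Slc16a1 (-0.59) moved most by that minimum, and Wnt7a (-0.43), Tagln (2.08) and Cspg4 (-0.36) were the called genes of the ligand and mural lists. From 5m to 18m 8 of 50 fell and 0 rose, where 1329 of 18078 genes fell and 1479 rose. Above that minimum they were led by Ly6a (-0.68), Fli1 (-0.66) and Abcg2 (-0.63), while Myh11 (-1.76) and Rgs5 (-0.49) fell and Vegfb (0.25) rose. The 5m values of Tagln and Myh11 had spreads wider than their means. The 50 endothelial genes summed to 2660 CPM in the input TH library of mouse 191 and to 2095 to 2185 CPM in the other mice of 5m. At 18m the range was 2063 to 2215 CPM. The calls of this list without mouse 191 are not given here.

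How closely the 10 genes varied together between mice of an age depended on mouse 191. Over the 12 input TH libraries, as deviations from the mean of each age in log2 CPM, with depth and scaling shared by all genes of a library, the correlation of a gene with the mean of the other 9 ranged from 0.49 for Slco1a4 to 0.89 for Pecam1 (Pearson r), and without mouse 191 from -0.08 for Cldn5 to 0.69 for Ly6c1. The most like genes among 13037 others were Thbd (0.976), which codes for the anticoagulant thrombomodulin, Hic1 (0.975), Vtn (0.974), Mrc2 (0.973) and Ahnak (0.969). Among the 100 most like genes were 4 of 42 other endothelial genes, 3 of 11 mural genes and 6 of 7 perivascular fibroblast genes, and none of the astrocyte, microglial, oligodendrocyte or neuronal lists. This order of genes depended on mouse 191 as well. Its Thbd level was 57.4 CPM, against 11.4 to 19.3 CPM in the other 11 libraries, and 25 of the 100 genes remained without it. The 100 then held 1 other endothelial and 1 mural gene, and the median r went from 0.74 to 0.37 for the endothelial list and from 0.91 to 0.61 for the mural list. Without it the r of the 5 genes was 0.83 to 0.89, and 0.66 to 0.91 without mouse 187 as well.

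**Figure D5:**
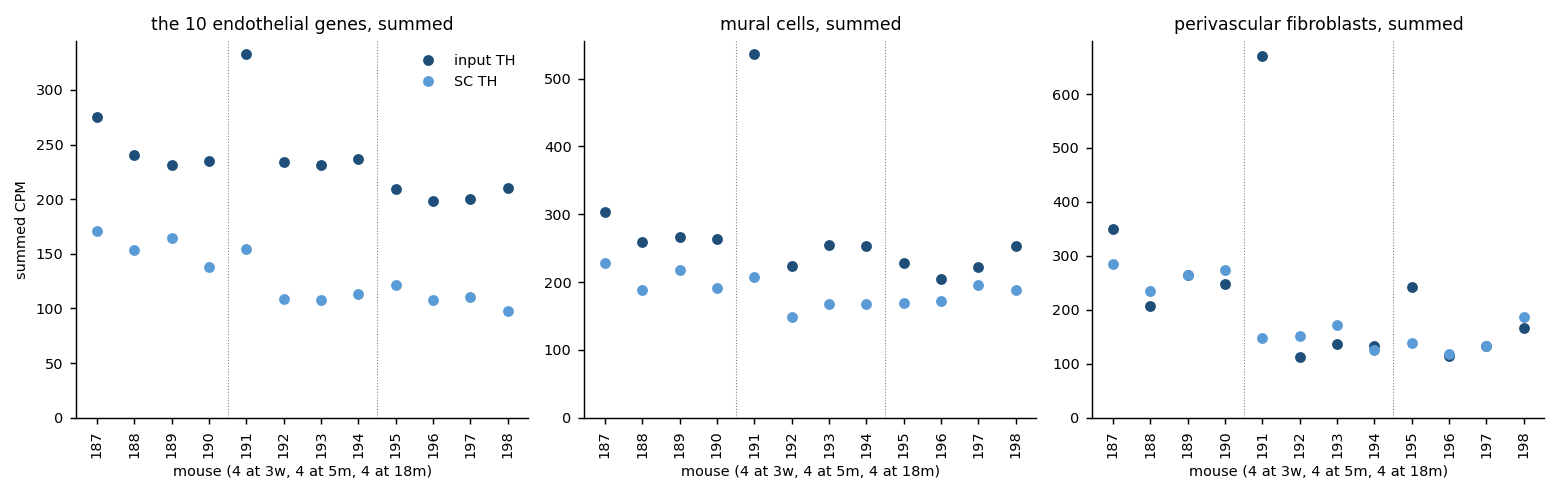
Summed TMM-scaled CPM of the 10 endothelial genes, of the mural list and of the perivascular fibroblast list in each mouse, in input TH and SC TH, by age. Mouse 191 (5m) lies above the others of its age for all 3 lists in input TH, and for the endothelial and mural lists in SC TH.

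In SC TH, mouse 191 was again the highest of its age for the endothelial genes, with 154 CPM against 108 to 113 CPM, and for the mural genes, with 208 CPM against 148 to 168 CPM. Its perivascular fibroblast genes, at 147 CPM, lay within the range of 125 to 171 CPM of the other 3 mice. By mouse, the summed level of the 10 genes at 18m was 198 to 210 CPM in input TH, 97.9 to 122 CPM in SC TH, 15.9 to 28.1 CPM in input SYN and 21.3 to 33.6 CPM in SC SYN, and the TH and SYN ranges were far apart.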

How the data were processed

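RNA of TH and SYN, before and after the sucrose cushion, was sequenced from 12 mice, 4 per age. The authors prepared rRNA-depleted, strand-specific libraries with UMI adaptors, aligned reads to GRCm38 (TopHat2 2.1 in the submitters' processing notes) and deposited counts per gene from featureCounts, summed without regard to strand and not normalized. Whether UMIs were used to remove duplicates is not given in the sources used here. Of 48526 identifiers, 48144 matched GENCODE, and the others held 0.0596% of the counts.

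In R 4.3.3, the quasi-likelihood test of edgeR 4.0.16 was applied to all genes that passed filterByExpr, with TMM factors, and p-values were adjusted by Benjamini-Hochberg and called under 0.05. SYN against TH and SC against input were fitted over 24 libraries with the groups as terms, ages within a fraction over 12, and the SYN to TH difference in SC against input over 48. p-values measure the spread between the mice within groups. In the fits over 24 and 48 libraries, the libraries of a mouse entered as separate ones, without a term for the mouse. The members, lists and tests were chosen with earlier results of these data known. All 10 members are named, and from the other endothelial, ligand and mural lists the 3 genes of each with the largest called change in a comparison and, in the group where it is higher, 50 counts or more on average. Genes most like the members, the 5 with the highest r in input TH, are named too. Other markers are named where they were at 0. Spock2, Bsg, Ly6e, Pdgfrb, Anpep and the Slc2a1 value between SYN and TH were chosen after their values were seen.

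Libraries of 1 mouse are paired by origin, since the mouse number in the labels names the animal. Between 2 fractions of a mouse, deviations from the group mean correlated with medians from -0.05 to 0.14 (range -0.53 to 0.53). The alternatives were a block by mouse, DESeq2 1.42.0, library size, no filter, at least 10 counts in every library, all 48 libraries in 1 fit, loess offsets (span 0.5) for gene length and GC content, and each mouse left out. Comparisons added after seeing the data are named as such in the text. The fitting code was tested on simulated data. Upstream sequences came from RefSeq (GRCm38.p6).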

Additional observations from a re-analysis of the deposited data

Results flagged for a closer look

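In 6 of 120 groups of 4 libraries the highest or lowest library lay apart from the others by Dixon's test, about the number that chance gives at 1 in 20. The gap made up 0.956 of the range for Pecam1 in input TH at 5m, where mouse 191 had 27.1 CPM and the others 15.4 to 15.9 CPM, and 0.886 for Tek in SC TH at 5m, with 7.50 CPM in mouse 191 and 3.71 to 4.14 CPM in the others. It was 0.885 for Flt1 in SC TH at 3w (mouse 189, 41.7 against 37.4 to 37.9 CPM) and 0.847 for Itm2a in input TH at 3w (mouse 187, 24.4 against 17.8 to 18.8 CPM). It was 0.903 for Kdr in SC SYN at 18m (mouse 198, 5.99 against 3.83 to 4.04 CPM) and 0.851 for Cdh5 in input SYN at 3w (mouse 187, 4.80 against 3.70 to 3.86 CPM). Mouse 191 gave 2 of the 6, and mouse 187 gave 2.

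The SC to input difference of Slco1a4 in TH differed between 3w and 5m by -0.88 (adjusted p = 0.0486, edgeR). The SYN to TH difference was less negative in SC than in input for 2 genes at 3w, by 1.15 for Flt1 (0.00768) and 1.12 for Esam (0.0216). At 5m it was so for 5 genes, by 1.72 for Flt1 (5.87e-05), 1.70 for Esam (9.55e-05), 1.65 for Itm2a (0.00221), 1.55 for Cdh5 (0.00733) and 1.23 for Kdr (0.00185). At 18m it was so for 4 genes, by 2.28 for Tek (0.0238), 1.71 for Slco1a4 (0.00954), 1.58 for Esam (9.10e-05) and 1.08 for Flt1 (0.00304). The numbers in brackets are adjusted p of edgeR over all genes.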

How the results depend on the processing

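The depletion from SYN was the most stable result: the alternatives called 9 or 10 genes in SC and in input, other than at least 10 counts in every library, under which 5 genes were left to test in SC and 4 were called at each age (in input, none was left to test). The change of the SC to input difference in TH from 3w to 5m gave 2 calls with library size, 3 with DESeq2, 3 with no filter, 2 with at least 10 counts, 0 with all 48 libraries, 0 with GC content and length offsets, and 0 to 2 with 1 mouse left out. The block by mouse gave 4, and 4 with the offsets. The SYN to TH difference in SC against input gave 4 calls at 3w with DESeq2, 4 with the offsets, 4 with the block and 4 with both, and 0 to 4 with 1 mouse left out. At 18m, 1 to 5 were called with 1 mouse left out. The block moved no other count of calls by over 1.5 times. SC SYN against input SYN at 5m gave 0 or 1 call with 1 mouse left out. SC SYN from 3w to 5m gave 1 call with no filter and 2 with all 48 libraries. Input TH gave 3 calls from 3w to 5m with no filter and 1 to 6 with 1 mouse left out, and from 5m to 18m 0 with all 48 libraries and 0 to 5 with 1 mouse left out. The cause of these differences was not tested, and the shares over all genes under these alternatives are not given in this section. The oligodendrocyte median between SYN and TH at 18m turned to -0.14 in SC (from 0.39) and to -0.23 in input (from 0.34) with library size. Depth limits SYN most, where the smallest library had 1780267 counts and Tek 3 counts over the 4 input SYN libraries of 5m.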
